A study of Rattus norvegicus with 6 samples.

Results

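The genes described here encode 9 proteins of the neuronal release machinery: Rab3a, Syp, Sv2b, Syt1, Vamp2, Snap25, Stx1a, Syn1 and Syn2. They were chosen by name, and every probe set that the annotation of the Affymetrix rat array gives to one of them was taken. This gave 17 of the 8740 probe sets that are not array controls, and 9 of 4736 named genes. Snap25 had 4 probe sets, Syn2 had 3, and Vamp2, Stx1a and Sv2b had 2 each. Rab3a, Syp, Syt1 and Syn1 had 1 probe set each.

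RNA came from brain capillaries of stroke-prone spontaneously hypertensive rats (SHRSP), an inbred strain that develops severe hypertension and stroke. The labels describe animals 6 weeks old in 3 groups of 2 arrays. The control arrays carry no drug in their label, the ACEI arrays stand for lisinopril, an inhibitor of angiotensin-converting enzyme, given at 6 mg/kg per day, and the ARB arrays for olmesartan, a blocker of the angiotensin II type 1 receptor, given by mouth at a daily dose of 4 mg/kg. A 1% NaCl intake is mentioned as well, without saying which groups received it, and give neither the length of treatment nor whether animals were pooled. Nothing in them says that the 2 arrays of a group came from separate animals, so the p-values below measure the spread between these arrays, which may be technical. The series asks how angiotensin II bears on gene expression in cerebral microvessels, which both drugs address by weakening its action. The mean of both drug groups set against control is called blockade of the renin-angiotensin system (RAS blockade) below.

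A nerve terminal stores transmitter in small vesicles. Synapsins hold the vesicles in a reserve near the actin cytoskeleton, the GTPase Rab3a rides on the vesicle and helps to bring it to the release site, and synaptophysin and the SV2 proteins span its membrane. Fusion is driven by the SNARE complex, in which Vamp2 on the vesicle coils with Snap25 and Stx1a on the plasma membrane, and Syt1 couples fusion to the entry of calcium. Brain capillaries are lined by endothelium and are not themselves synaptic, but they are isolated from tissue dense in nerve terminals. In RNA from a whole preparation, more cells or fragments of a type and more RNA per cell cannot be told apart.

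The sequence upstream of each start is shown for members whose intensities are followed below. RefSeq promoter entries (build GRCr8, 300 bases each) were matched by symbol for 8 of the 9 genes, all but Snap25. Shown 5′ to 3′ are the 250 bases before the annotated gene start of Rab3a, which had the largest difference from control for RAS blockade (chr16:18722274-18722523, minus strand), of Syp, the classical vesicle marker (chrX:17536450-17536699, minus strand), and of Syn1, a synapsin in which the cyclic AMP response element (CRE) lies as a whole palindrome (chrX:3725495-3725744, plus strand). Capitals mark the GC box GGGCGG and the CRE-type motif TGACGT, on either strand.
Rab3a: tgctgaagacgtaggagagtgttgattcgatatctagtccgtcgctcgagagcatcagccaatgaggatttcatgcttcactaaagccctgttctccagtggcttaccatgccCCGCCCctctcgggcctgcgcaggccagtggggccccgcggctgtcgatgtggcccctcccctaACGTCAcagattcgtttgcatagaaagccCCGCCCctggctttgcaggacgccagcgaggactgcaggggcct
Syp: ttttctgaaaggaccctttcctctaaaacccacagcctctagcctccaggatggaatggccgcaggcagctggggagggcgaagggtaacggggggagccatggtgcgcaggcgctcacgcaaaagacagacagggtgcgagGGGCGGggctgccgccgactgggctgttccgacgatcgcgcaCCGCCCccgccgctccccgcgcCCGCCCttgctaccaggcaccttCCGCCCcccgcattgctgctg
Syn1: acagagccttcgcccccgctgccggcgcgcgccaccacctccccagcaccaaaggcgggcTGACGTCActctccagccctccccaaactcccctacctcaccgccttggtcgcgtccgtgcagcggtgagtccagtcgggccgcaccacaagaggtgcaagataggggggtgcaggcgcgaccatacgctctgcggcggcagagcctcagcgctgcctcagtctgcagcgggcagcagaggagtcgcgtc

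In these stretches Rab3a held 2 GC boxes and 1 CRE-type motif, and Syp held 4 GC boxes. In Syn1 the 2 CRE matches, 1 on each strand, overlap in one palindrome. Over the full 300 bases, GGGCGG on either strand was present in 7 of the 8 member promoters, all but that of Sv2b, and in 33.1% of all 33469 rat promoters of that length. TGACGT was present in 3 of 8, those of Rab3a, Syn1 and Vamp2, and in 7.94% of all. The core of the RE1 element, searched on both strands too, was in 0 of 8 and in 0.0299% of all promoters. These are matches of letters within a short window, and binding was not measured.

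Each value is the deposited intensity of a probe set, the brightness of its spots on a linear scale, and probe sets are compared only with themselves across arrays. The arrays had median intensities between 244.9 and 493.8 at nearly equal trimmed means, with the ARB arrays highest. Detection calls were not used here, and 19 control probe sets for bacterial and yeast transcripts served as a measure of signal without a rat target. This measure was chosen after seeing the data. Their median was 18.9 and 23.3 on control, 28.6 and 13.1 on ACEI, and 105.6 and 80.9 on ARB, and the highest of them lay between 61.1 and 168.3 on the control and ACEI arrays and at 545.3 and 522.9 on the ARB arrays. Control 1 and ACEI 1 were run on an earlier day than the other arrays, so both ARB arrays can be set beside only control 2 within a day. The chip lot changed with the run day. On the later day the run headers name another protocol for ARB 1 than for control 2, ACEI 2 and ARB 2. Within-day values for the ARB arrays are thus matched in protocol only for ARB 2. Control 2 had a ratio of 3′ to 5′ signal for Gapdh of 7.31, against 0.933 to 1.59 on the other arrays, a ratio that is higher where RNA is degraded or copied incompletely.

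**Figure D1:**
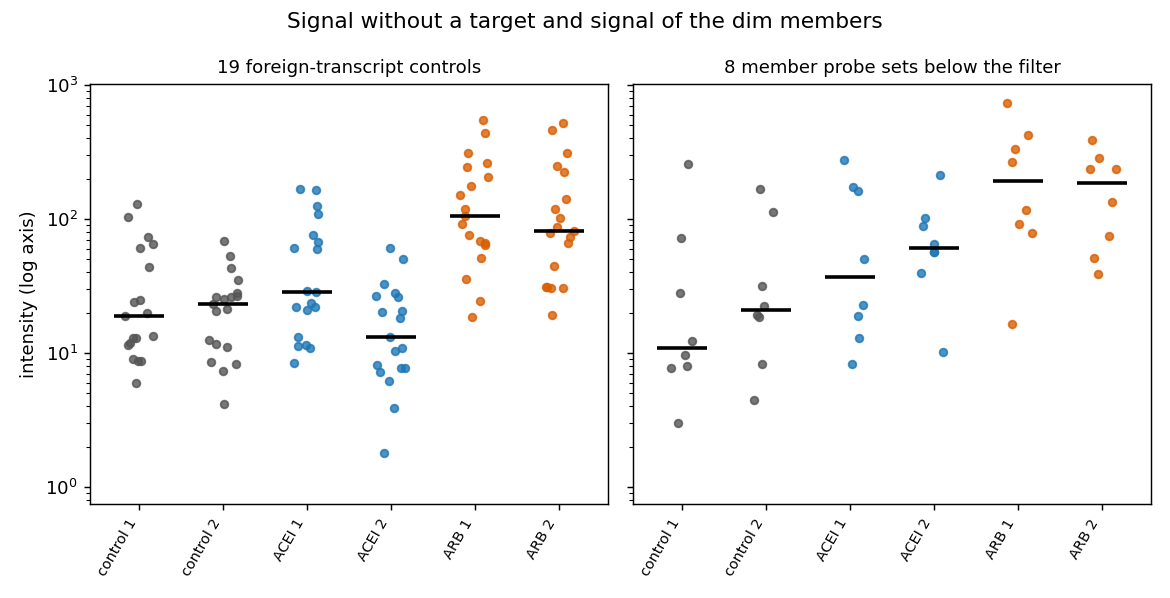
Intensity on a log axis, by array, of 19 foreign-transcript controls (left) and of the 8 member probe sets that were too dim to be tested (right); each point is 1 probe set and each bar the median on that array. The foreign controls have their highest medians on the ARB arrays, 105.6 and 80.9, and the dim members are also brightest there.

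Differences are given as log2 of the intensity plus an offset of 90, which understates fold changes of dim genes, with the standard error of a limma model over all 6 arrays. Tests covered 5244 probe sets, after the dimmest 40% by mean had been set aside. Of the 17 member probe sets 9 were tested, from 7 genes, and none of Syt1 or Syn2. On the 6 arrays, in the order control, ACEI and ARB, 9, 10, 11, 13, 8 and 7 of the 17 lay above the highest foreign control of their array. Above it on all 6 arrays were 6 probe sets of 5 genes (Snap25, Syp, Stx1a, Syn1 and both of Vamp2).

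Of the 9 release genes 8 had a higher mean on the drug arrays than on the control arrays, with Rab3a and Snap25 farthest apart, but none passed the test across all genes. For RAS blockade against control, 16 of the 17 member probe sets had a difference above 0, and the median over the 9 genes, each by its brightest probe set, was 0.60, beside 0.19 over all 4736 genes. Of the 9 genes 88.9% were higher, beside 64.9% of all genes, and of the foreign controls 19 of 19 were higher, with a median of 0.35, whose part in the members' values was not tested. Of the 9 tested member probe sets 0 had an adjusted p under 0.05 (limma, Benjamini-Hochberg, lowest 0.863), as had 0.0% of all tested. An unadjusted p under 0.05 (limma) was reached by 2 of the 9, Rab3a and Snap25, both higher, beside 3.05% of all tested probe sets that were higher at that level. Rab3a passed the filter on the mean of all arrays through its drug arrays. Its mean log2 value was 7.18 on control, 9.37 on ACEI and 8.89 on ARB. The same holds for the later counts that include Rab3a. By the brightest probe set of each gene, Rab3a and Snap25 had every drug array above both control arrays. Among all member probe sets they were joined by U56261_s_at of Snap25, L10362_at of Sv2b and rc_AI145494_g_at of Syn2, all below the filter. Probe sets in that order were 5 of the 17, beside 6.42% of all probe sets. With 1 control array left out these were 9 of 17 beside 24.8% (without control 1) and 9 of 17 beside 20.2% (without control 2). Without ACEI 2 the count stayed at 5 of 17 while the share of all probe sets was 21.9%, so the distance from the background was smallest there. By gene, 6 of 9 were higher without control 1, beside 2862 of all 4736 genes, and 8 of 9 without control 2, beside 3056. The count of 16 probe sets became 13 without control 1 and 15 without control 2. Under quantile and cyclic loess normalization it was 14 and 15, and the median over the 9 genes was 0.37 and 0.41, beside -0.01 and 0.00 over all genes, so that the median of all genes, 0.19 in the deposited scaling, was near 0 there. An unadjusted p under 0.05 in either direction was reached by 266 of all tested probe sets and an adjusted one by 0.

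**Figure D2:**
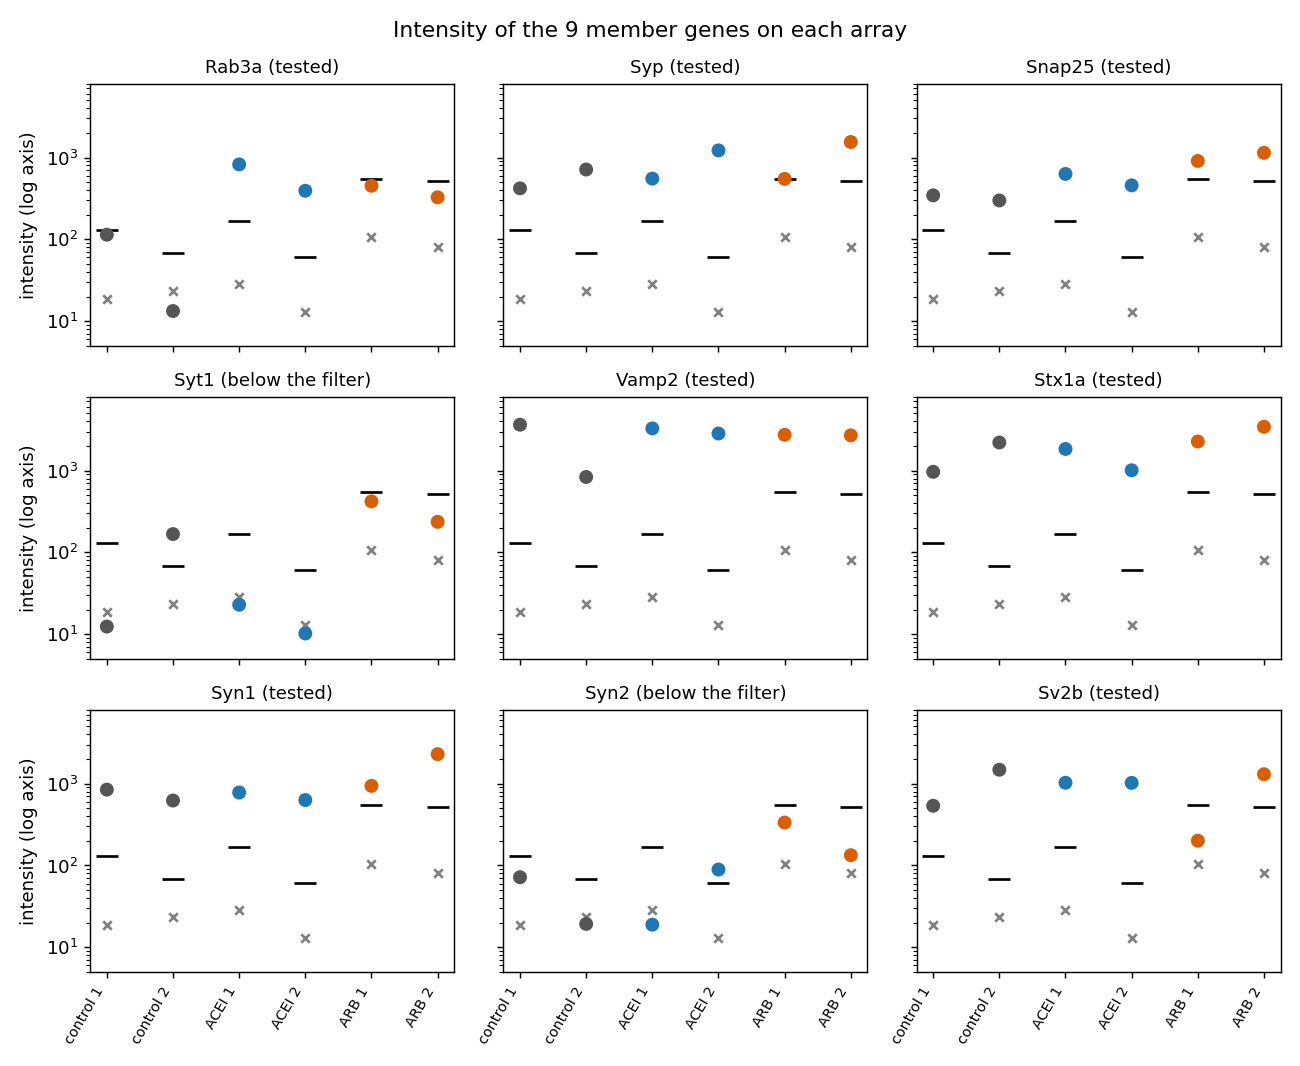
Intensity on a log axis of the brightest probe set of each of the 9 genes on each array (control grey, ACEI blue, ARB orange circles), with the highest foreign control of that array as a black bar and the median foreign control as a cross. Rab3a and Snap25 have all 4 drug arrays above both control arrays, and Syt1 and Syn2 lie mostly at or under the black bars.

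Rab3a showed the largest difference of the tested members. Its probe set (X06889cds_at) read 113.9 and 13.3 on control, 823.6 and 392.5 on ACEI, and 451.8 and 326.1 on ARB. All 4 drug arrays were above both control arrays, while the ACEI and ARB arrays overlapped. The log2 difference was 1.95 ± 0.48 for RAS blockade (unadjusted p = 0.00306, adjusted p = 0.863, limma). For ACEI it was 2.19 ± 0.55 (adjusted p = 0.992) and for ARB 1.71 ± 0.55 (adjusted p = 0.230).

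Rab3a is a small GTPase that cycles on and off the vesicle, and its readings on the control arrays were at the level of the foreign controls, the lower one (13.3) under their median on that array (23.3). Both control values, and both ARB values, lay under the highest foreign control of their arrays, and the ACEI values were the 2 above it. Within the earlier run day ACEI 1 exceeded control 1 by 2.16, and within the later day ACEI 2 exceeded control 2 by 2.22 and the mean of the ARB arrays exceeded it by 2.20. The difference for RAS blockade ran from 1.00 with the larger offset to 3.53 with an offset of 1, so the difference has no fixed size. Without control 1 the ACEI difference was 2.68, from a fit with 1 control array left. Control 2, the array left in that fit, has the raised Gapdh ratio, whose part in this result was not tested.

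Among the membrane proteins of the vesicle, synaptophysin (Syp), its most used marker, read 419.8 and 713.4 on the control arrays, 552.2 and 1221.7 on ACEI, and 547.5 and 1548.3 on ARB (X06655_at). In every group the second array was the brighter one, and the groups overlapped. The difference was 0.60 ± 0.54 for RAS blockade (adjusted p = 0.872), 0.52 ± 0.62 for ACEI and 0.68 ± 0.62 for ARB. Without ARB 2 the ARB difference was -0.01, and without ACEI 2 the ACEI difference was 0.01 (1.04 without ACEI 1). The size of each thus depended on which array was kept. Within run days ACEI 1 exceeded control 1 by 0.33 and ACEI 2 exceeded control 2 by 0.71. The mean of the ARB arrays exceeded control 2 by 0.35, with ARB 1 (547.5) below control 2 (713.4).

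Sv2b, a transporter-like glycoprotein of the vesicle, was read by 2 probe sets with different orders of the arrays. The brighter one (rc_AI639484_at) read 536.9 and 1479.9 on control, 1026.1 and 1021.9 on ACEI, and 200.9 and 1305.4 on ARB, with groups that overlapped and ARB arrays 6.50-fold apart. Its difference of -0.24 ± 0.67 for RAS blockade (adjusted p = 0.957) was the 1 below 0 among the 17, and it turned to 0.43 without control 2 and to 0.33 without ARB 1. The dimmer one (L10362_at) read 28.0 and 31.6, 160.6 and 57.0, and 736.5 and 286.5 in the same order, with both ARB arrays highest and both control arrays lowest. That order follows the foreign controls in having its highest values on ARB, and the probe set was above the highest of them on 1 array. It was below the filter, so its differences of 0.68 for ACEI and 2.22 for ARB carry no test.

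Syt1, the calcium sensor of fast release, was dim on most arrays. Its probe set (X52772cds_at) read 12.4 and 167.6 on control, 22.9 and 10.2 on ACEI, and 420.6 and 236.4 on ARB. The control arrays differed 13.5-fold from each other, and both ARB arrays were above all others while lying under the highest foreign control of their own array. Untested differences were -0.61 for ACEI and 1.33 for ARB.

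Of the SNARE proteins, Snap25, the plasma membrane partner that carries a pair of SNARE helices, gave the steadiest readings. Its brightest probe set (AB003991_at) read 345.0 and 298.7 on control, 630.2 and 456.5 on ACEI, and 908.3 and 1141.0 on ARB. The groups did not overlap, with control lowest, ACEI between and ARB highest, and each array was above its highest foreign control. The difference was 1.02 ± 0.39 for RAS blockade (unadjusted p = 0.0298, adjusted p = 0.863) and 1.43 ± 0.45 for ARB (unadjusted p = 0.0123, adjusted p = 0.229, the lowest of any member in that comparison). For ACEI it was 0.61 ± 0.45 (adjusted p = 0.992). Over the alternatives the RAS blockade difference ran from 0.71 to 1.20. Within run days it was 0.73 for ACEI 1, 0.49 for ACEI 2 and 1.51 for the ARB arrays.

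The remaining Snap25 probe sets were below the filter. AB003991_g_at read 256.2 and 113.7 on control, 277.8 and 214.1 on ACEI, and 265.1 and 236.4 on ARB, where the groups overlapped. U56261_s_at read 3.0 and 22.3, 50.5 and 39.4, and 92.2 and 388.6, with all drug arrays above control but no array above its highest foreign control. AB003992_s_at read 7.7 and 8.3, 8.3 and 64.7, and 116.9 and 74.4. All 4 Snap25 probe sets had a RAS blockade difference above 0 (1.02, 0.35, 0.97 and 0.62), with AB003991_g_at turning to -0.04 without control 2.

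Vamp2 (synaptobrevin), the vesicle SNARE, was set apart by control 2. M24105_at read 3638.8 and 835.7 on control, 3279.9 and 2838.8 on ACEI, and 2739.2 and 2698.3 on ARB. Control 1 was the brightest of the 6 arrays and control 2 the dimmest, 4.35-fold below it, while the drug arrays lay close together. The difference for RAS blockade was 0.68 ± 0.57 (adjusted p = 0.864), 1.68 without control 1 and -0.33 without control 2. The second probe set (rc_AI101103_s_at) read 1443.1 and 633.1, 1338.1 and 1048.9, and 1390.4 and 2375.1. Control 2 was again the dimmest, and the difference was 0.57 ± 0.47 (adjusted p = 0.863) and 0.03 without control 2. Control 2 has the raised Gapdh ratio of 7.31, and its part in these values was not tested.

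Stx1a (syntaxin 1A), the plasma membrane anchor of the complex, had 2 tested probe sets. D10392_i_at read 965.9 and 2204.5 on control, 1838.4 and 1009.2 on ACEI, and 2267.9 and 3432.6 on ARB. Both ARB arrays were above all others, by little over control 2, and ACEI overlapped with control. Its differences were -0.10 ± 0.57 for ACEI and 0.89 ± 0.57 for ARB (adjusted p = 0.435). Within run days ACEI was 0.87 above control on the earlier day and -1.06 from it on the later. D12519_s_at read 298.4 and 580.1, 412.1 and 514.0, and 1331.8 and 187.3, so that the ARB arrays held both the highest and the lowest value, 7.11-fold apart, and its ARB difference of 0.30 ± 0.75 was -0.88 without ARB 1 and 1.48 without ARB 2.

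Of the synapsins, Syn1 (M27812_at) read 846.1 and 622.2 on control, 779.0 and 630.6 on ACEI, and 939.7 and 2296.0 on ARB. The ACEI arrays lay within the control range and both ARB arrays above it. The difference was -0.05 ± 0.54 for ACEI and 0.94 ± 0.54 for ARB (adjusted p = 0.383), and 0.33 for ARB without ARB 2. Syn2 had 3 probe sets, all below the filter and each above the highest foreign control on 1 array. M27925_at read 71.9 and 19.3 on control, 18.9 and 89.2 on ACEI, and 334.9 and 133.5 on ARB. The ARB arrays were the brightest, as they were for the foreign controls. For rc_AI145494_at the values were 9.6 and 18.6, 172.3 and 56.6, and 16.4 and 39.1, with ACEI brightest, and for rc_AI145494_g_at they were 8.0 and 4.5, 13.0 and 102.4, and 79.0 and 50.9. The Syn2 probe sets thus gave no common order of the drug groups.

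The drug groups were then compared with control one by one, with the same 2 control arrays in both comparisons. For ACEI the 9 genes had a median difference of 0.17, beside -0.05 over all genes, and 6 of 9 genes were higher. Among the tested member probe sets 0 of 9 had an adjusted p under 0.05 (lowest 0.992), as had 0.0% of all tested, and 1 of 9, Rab3a, was higher at an unadjusted p under 0.05, beside 1.2% of all. Both ACEI arrays were above both controls for 6 of 17 probe sets, beside 11.6% of all. Of all tested probe sets 136 had an unadjusted p under 0.05.

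For ARB the median over the 9 genes was 0.94, beside 0.40 over all genes, and 8 of 9 genes were higher, beside 67.7% of all. Here 0 of 9 tested probe sets had an adjusted p under 0.05 (lowest 0.229) and 0.0% of all tested, with 905 of all at an unadjusted p under 0.05. At an unadjusted p under 0.05, 2 of 9 were higher (Rab3a and Snap25), beside 12.6% of all. Both ARB arrays were above both controls for 10 of 17 probe sets, beside 43.9% of all, so that higher values on the ARB arrays were common in the whole table. The foreign controls had a median difference of 0.60 for ARB, with 19 of 19 higher, and of 0.00 for ACEI, with 10 of 19 higher. Their part in the ARB values of the members was not tested. Member probe sets below the filter had a median ARB difference of 1.06, beside 0.63 over all 3496 probe sets below it. For the tested ones it was 0.86, beside 0.18 over all tested. With the median taken over the 6 genes whose mean was above the highest foreign control of any array, a choice made after seeing the data, the ARB difference was 0.78 and the ACEI difference 0.34.

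**Figure D3:**
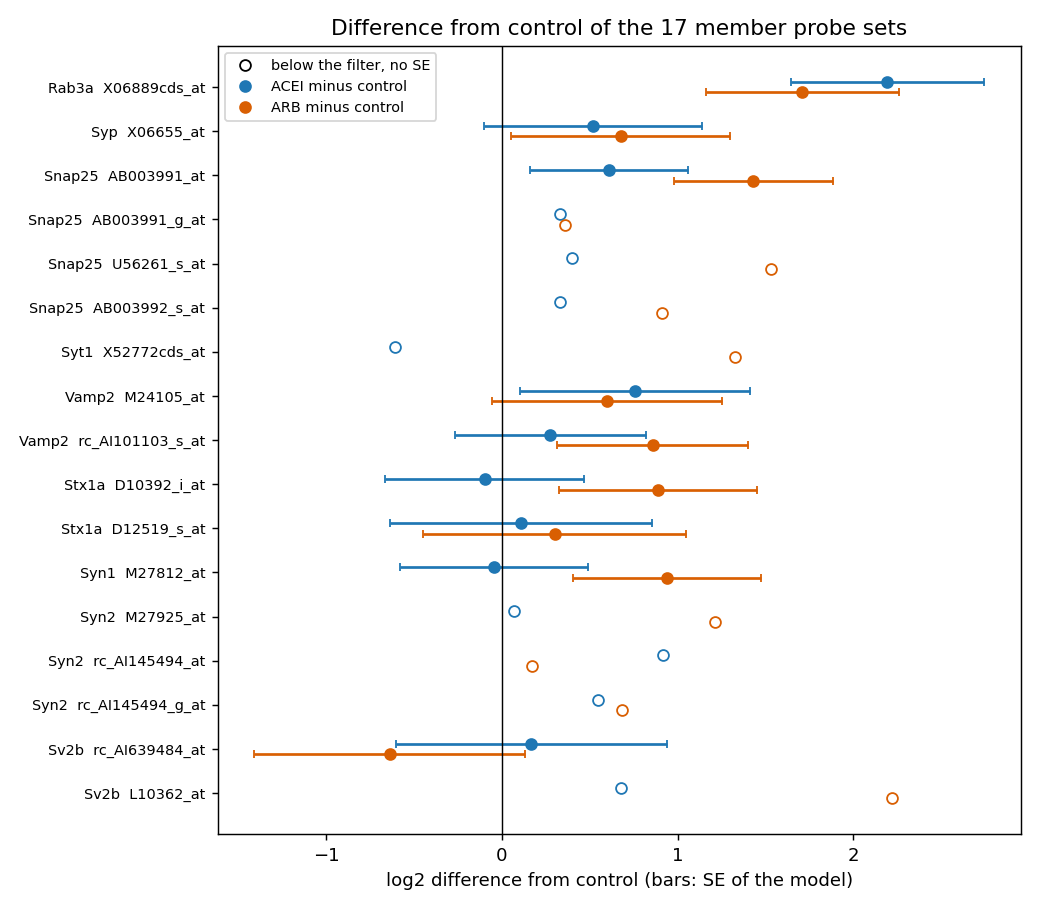
Log2 difference from control of the 17 member probe sets, for ACEI (blue) and ARB (orange); filled points are tested probe sets with the standard error of the limma model as bars, and open points are probe sets below the filter. Rab3a lies farthest to the right among the tested points, at 2.19 for ACEI and 1.71 for ARB, and outside Rab3a and Snap25 the ACEI bars of all tested probe sets but 1 of Vamp2 cross 0.

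Set directly against ACEI, ARB gave a median of 0.82 over the 9 genes, beside 0.42 over all. None of the 9 tested probe sets (0) had an adjusted p under 0.05 (lowest 0.309, Syn1), as had 0.0% of all tested, and 0 of 9 had an unadjusted p under 0.05, beside 15.6% of all that were higher at that level and 1171 in either direction. Both ARB arrays were above both ACEI arrays for 9 of 17 probe sets, beside 46.9% of all. For M24105_at of Vamp2 (-0.16) and rc_AI145494_at of Syn2 (-0.74, below the filter) both ARB arrays were below both ACEI arrays. The share of all probe sets in that order was not counted. D10392_i_at of Stx1a (0.99 ± 0.57), Syn1 (0.99 ± 0.54) and AB003991_at of Snap25 (0.82 ± 0.45) had the largest tested differences. Rab3a (-0.48 ± 0.55) and rc_AI639484_at of Sv2b (-0.81 ± 0.77) were lower on ARB. The second probe set was at 0.19 ± 0.75 for Stx1a and, untested, at 1.54 for Sv2b. A difference between the drugs was therefore not detected for any tested member probe set. Syt1 (1.94, with both ARB arrays above both ACEI arrays) and Syn2 were not tested.

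How far the members moved together was described by centring each gene on its own mean over the arrays. The mean of the 9 centred genes was -0.45 and -0.42 on the control arrays, 0.02 and -0.09 on ACEI, and 0.26 and 0.68 on ARB. In this mean the control arrays were lowest and alike, ACEI between, and ARB highest, with ARB 2 apart from ARB 1. Gene by gene the control arrays were 1.155-fold (Snap25) to 13.5-fold (Syt1) apart. Against the mean profile of the 7 tested genes, the root mean square distance over the 6 arrays was smallest for Snap25 (0.33) and Syn1 (0.37), and larger for Syp (0.46), Stx1a (0.52), Vamp2 (0.62), Rab3a (0.81) and Sv2b (0.85), beside a median of 0.65 over the 3179 other tested genes. Rab3a and Sv2b were thus farther from the members' mean than the typical gene, although they are part of that mean. The 5 other genes closest to it were Shisa4 (0.11), Gabbr2, a subunit of the GABA-B receptor (0.16), Npr2, a natriuretic peptide receptor (0.16), the polarity protein Pard3 (0.16) and Slc3a1, a subunit of an amino acid transporter (0.18). Shisa4 read 260.7 and 276.4 on control, 501.6 and 524.0 on ACEI, and 414.9 and 818.1 on ARB.

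The other genes of the release cycle were taken as lists, chosen with earlier results of these data known. Among other vesicle proteins 29 of 35 were measured, 15 of them tested, and 23 of 29 were higher for RAS blockade, with a median of 0.42. Syt5, a synaptotagmin, read 669.3 and 833.9 on control, 975.8 and 1190.0 on ACEI, and 1239.6 and 2201.9 on ARB, with groups that did not overlap (0.77 for RAS blockade). Under quantile and cyclic loess normalization the median of this list was 0.16 and 0.17, and it was 0.26 without ARB 2. Rabac1, a partner of Rab3a, read 11741.7 and 3557.1, 9014.2 and 11366.9, and 2877.3 and 2439.4, and was thus lowest on ARB. In the list of docking, priming and fusion factors 25 of 42 were measured and 13 tested, and 19 of 25 were higher, with a median of 0.35 that was 0.05 and 0.03 under those normalizations. Unc13a, the priming factor Munc13-1, read 167.1 and 139.1, 352.5 and 180.5, and 1099.0 and 413.0 (1.09), and complexin 1 (Cplx1), which clamps the SNARE complex, 493.5 and 478.8, 279.0 and 235.5, and 619.1 and 1261.7. Cplx1 was lower than control on both ACEI arrays and higher on both ARB arrays.

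For vesicle endocytosis 17 of 20 genes were measured and 15 tested, and 11 of 17 were higher for RAS blockade, beside 64.9% of all genes. The median was 0.26, beside 0.19 over all genes, and it was 0.12 and 0.19 under those normalizations. Without control 1 it was 0.03, with 9 of 17 higher. Dynamin 1 (Dnm1), the GTPase that cuts endocytic vesicles free, read 1458.1 and 2494.7 on control, 2357.3 and 4440.1 on ACEI, and 5590.8 and 5976.0 on ARB, with ARB above all others (1.14). SNARE and vesicle paralogs that serve outside synapses had a median of 0.14, with 13 of 19 higher and 13 tested, which turned to -0.08 and -0.02 under those normalizations and to -0.17 without control 2. Without control 1 it was 0.83, beside 0.65 for the members, so the paralogs were lower than the members only in part of the settings. Snap23, the paralog of Snap25 in other tissues, read 884.2 and 1667.0, 737.4 and 613.6, and 490.0 and 717.5. It was the 1 gene of this list below control on all drug arrays (-0.86). Snap29 went the other way (0.83), at 161.7 and 142.3, 248.4 and 73.3, and 583.1 and 825.1, with ARB above all others. For ARB the medians of the vesicle, docking and endocytosis lists were 0.84, 0.83 and 0.65, and 0.33, 0.22 and 0.20 under quantile normalization, where the median of all genes was 0.02 and that of the members 0.67. In each of these 4 lists 0 genes had an adjusted p under 0.05 (limma) in any comparison.

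**Figure D4:**
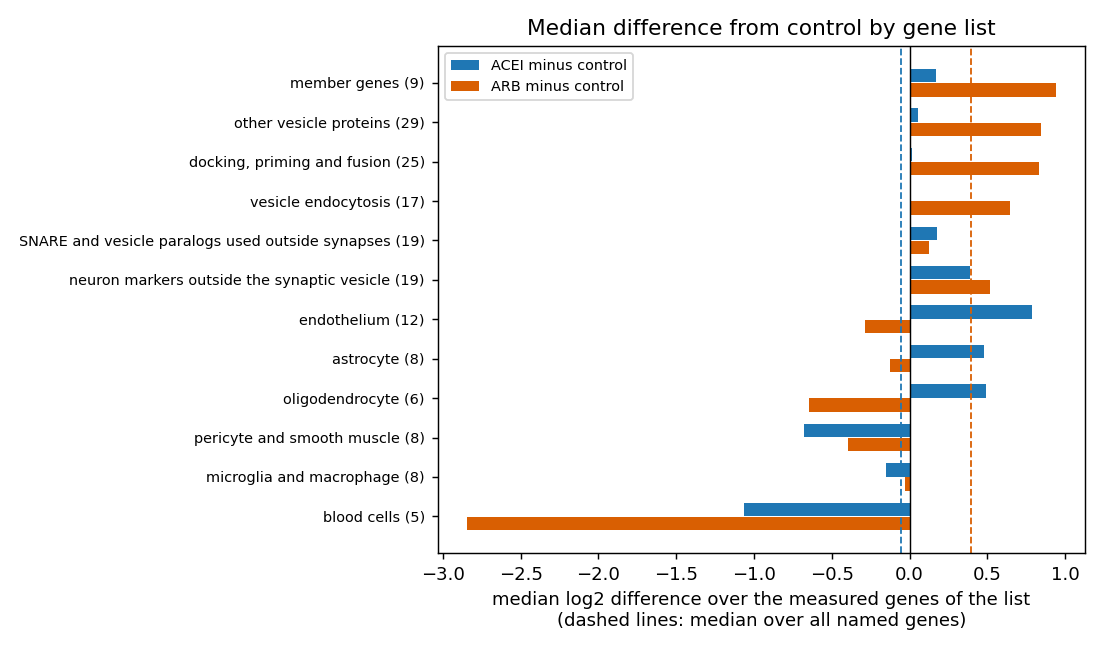
Median log2 difference from control over the measured genes of each list (number in brackets), for ACEI (blue bars) and ARB (orange bars), with dashed lines at the medians of all 4736 genes, -0.05 for ACEI and 0.40 for ARB. The member genes (0.94), other vesicle proteins (0.84) and docking, priming and fusion factors (0.83) lie above the ARB line, and the paralogs used outside synapses (0.12, and -0.34 under quantile normalization) below it; without control 1 the paralogs are at 0.62, above the 0.41 of all genes.

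Markers of the cells that a capillary preparation can hold were read beside the members. Of the neuron markers outside the vesicle 19 of 24 were measured, 13 tested, and 17 of 19 were higher for RAS blockade with a median of 0.52, none listed at 0. That median was 0.32 and 0.38 under quantile and cyclic loess normalization, 0.22 without control 1 and 0.69 without control 2. Their summed intensity ran from 17638 to 28834 on control, 25409 to 28889 on ACEI and 32680 to 34600 on ARB, and that of the 9 members from 6355 to 6951, 7671 to 8971 and 8811 to 13118. The neuronal hydrolase Uchl1 read 408.7 and 587.8, 954.9 and 1746.2, and 1873.3 and 1913.3, with groups that did not overlap (1.51). The summed level of the neuron markers was highest on both ARB arrays. For the members the highest sum was on an ARB array, but the ACEI and ARB ranges overlapped. The control and ACEI ranges overlapped for the markers and not for the members. Centred on their means the neuron markers were at -0.68 and -0.08 on control, 0.22 and -0.06 on ACEI, and 0.30 and 0.31 on ARB, so that control 2 and ACEI 2 were alike, whereas the members were at -0.42 and -0.09 on these arrays. Their part in the values of the members was not tested.

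The capillary label was checked on endothelial markers: 12 of 17 were measured, all 12 were tested and none was listed at 0, and the glucose transporter Slc2a1 read between 27457 and 66763. Their summed level was 74756 to 151013 on control, 76458 to 82793 on ACEI and 65950 to 76772 on ARB, and their median difference was 0.78 for ACEI and -0.29 for ARB. Both turned with the control array used, to -0.19 for ACEI without control 2 and to 0.61 for ARB without control 1. Astrocyte markers (8 of 10 measured) had medians of 0.48 and -0.13, oligodendrocyte markers (6 of 7) 0.49 and -0.65, pericyte and smooth muscle markers (8 of 9) -0.68 and -0.39, microglia and macrophage markers (8 of 10) -0.15 and -0.03, and blood cell markers (5 of 7) -1.06 and -2.84. Without control 1 the microglia medians turned to 0.14 and 0.18 and the pericyte median for ARB to 0.01. None of these lists (0 genes) had an adjusted p under 0.05. The part of these marker levels in the values of the release genes was not tested.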

How the data were processed

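The deposited table held 1 intensity for each of 8799 probe sets on 6 arrays, on a linear scale; 3 values were 0. The values showed that the authors had scaled each array to a trimmed mean (2% at either end) between 997.7 and 1002. The software behind them was not given in the sources used here. Run settings, text of another kind, were read per the file headers and gave 2 run days. Probe sets were named from the array annotation: 7018 had 1 symbol, 308 several (0 of them with a member) and 1473 none; the 59 control probe sets were left out of tests. Gene identifiers of 6994 were found in the reference gene table, and 0 symbols changed.

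Log2 values (intensity plus an offset of 90, the median of values above 0, 358.3, divided by 4 and rounded) were fitted with limma 3.58.1 (R 4.3.3), with 1 mean per group (degrees of freedom: 3 residual, 5.49 prior); p-values were two-sided and adjusted by Benjamini-Hochberg over 5244 probe sets, with a threshold of 0.05. No normalization between arrays was added. The number of arrays, 2 per group, limits the precision. All member probe sets are given; for a gene with several, the one with the highest mean stands for it. Of the other lists, genes were named from the 3 with the highest mean intensity and the 3 with the largest RAS blockade difference, and the 5 genes most like the members by distance. The members and all lists were chosen with earlier results of these data known. The fit was tested on simulated data. Counts and list medians under other normalizations or with 1 array left out were added after seeing the data. Alternatives covered offset, filter, normalization, blocks, array weights, arrays left out and the probe set per gene. Python 3.11.15, pandas 2.3.3 and matplotlib 3.10.9 were used.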

Additional observations from a re-analysis of the deposited data

How the results depend on the processing

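With 2 arrays a group and detection calls not used, values near the foreign controls are weak evidence of a level, and each call rests on 1 estimate of the spread shared by 3 groups. Where a value below moved, the cause was not tested. The medians over the 9 genes stayed above 0 in every alternative run; of the 17 member probe sets, 11 kept their sign throughout for RAS blockade, 8 for ACEI, 11 for ARB and 10 for ARB against ACEI. The count of all probe sets with an adjusted p under 0.05, 0 in each comparison, became 3 (RAS blockade), 3 (ACEI), 4 (ARB) and 4 (ARB against ACEI) with an offset equal to the median, and 1 for RAS blockade under quantile and under cyclic loess normalization. For ARB against ACEI it was 518 with array weights and 305 with only those groups fitted. Leaving out 1 array at a time, it ranged from 0 to 60 for RAS blockade (60 without control 1), 0 to 261 for ACEI (261 without control 1), 0 to 46 for ARB (46 without control 2, 15 without control 1) and 0 to 305 for ARB against ACEI (305 without either control); the group left with 1 array was assumed to vary like the others. With the replicate block it was 3, 2, 4 and 1 in the same order, and the medians stayed at 0.60, 0.17, 0.94 and 0.82. Over the tested probe sets same-numbered arrays did not deviate together (correlations 0.045, -0.015 and -0.004). Control 1 and ACEI 1 nonetheless shared the earlier run day, so these correlations cannot decide whether the numbers pair arrays. The median over the genes, for RAS blockade, ARB and ARB against ACEI, was 0.37, 0.62 and 0.51 with the offset equal to the median, 0.37, 0.67 and 0.45 with quantile normalization and 0.41, 0.72 and 0.44 with cyclic loess. These normalizations moved the median of all tested probe sets for ARB from 0.18 to -0.07 and -0.00. On the later run day alone it was 0.49 for ACEI and 1.14 for ARB. With the mean over all probe sets of a gene it was 0.42 for ACEI and 0.37 for ARB against ACEI, and over the 6 genes above the foreign controls (chosen after seeing the data) 0.49 for ARB against ACEI. Leaving out 1 array it ranged from 0.52 to 0.93 for RAS blockade (0.93 without control 2), 0.17 to 0.46 for ACEI (0.46 without control 2, 0.41 without ACEI 1), 0.61 to 1.18 for ARB (0.61 without ARB 2) and 0.38 to 0.84 for ARB against ACEI (0.38 without ARB 2). A fit of only the groups compared could not be made for RAS blockade, which uses all arrays.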
